A study of Caenorhabditis elegans with 10 samples.

Results

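Knockdown of the transcription factor skn-1 was compared with control knockdown in Caenorhabditis elegans carrying a mutation in wdr-23. The comparison took the 3 wdr-23 skn-1 RNAi arrays and the 4 wdr-23 control RNAi arrays, 7 of the 10 arrays of the study, over all 22548 probe sets that were not array controls. The other 3 arrays held N2, the wild-type strain, on control RNAi, and they are used here as the wild-type level. Both wdr-23 groups carried the same wdr-23 allele, written tm1718 in the sample labels and tm1817 in the design text, so every difference between them lay on a mutant background. N2 animals given skn-1 RNAi were not analysed here. Worms of all 3 groups were fed HT115 bacteria with double-stranded RNA plasmids on agar with carbenicillin (50 ug/ml) and lactose (0.2%), from synchronised L1 larvae until most were at L4. Each replicate was RNA of 200 to 500 whole animals, of which 250 ng went onto a 1-colour Affymetrix array, so no tissue was measured apart from the others.

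SKN-1, related to the mammalian Nrf factors, switches on genes for conjugating and clearing electrophiles and for making glutathione. WDR-23 is a WD40-repeat protein that presents SKN-1 to a CUL-4/DDB-1 ubiquitin ligase for degradation, and without it SKN-1 collects in nuclei, above all in the intestine. Removing skn-1 by RNAi in a wdr-23 mutant asks which of the expression changes of the mutant need skn-1.

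The values were MAS5 signals, a brightness per probe set on a linear scale that had been scaled per array, with a trimmed mean of 500.1 in every array. The small number of arrays limits the precision: standard errors of the log2 differences between both groups had a median of 0.15. Pearson correlations of log2 signals were 0.981 to 0.986 among the control RNAi arrays, 0.988 to 0.989 among the skn-1 RNAi arrays and 0.953 to 0.964 between both groups. The first principal component of the 7 arrays held 59.2% of the variance and placed the control RNAi arrays at -29.4 to -23.2 and the skn-1 RNAi arrays at 32.3 to 36.4. Median signals were 135 to 139.9 in control RNAi and 118 to 125 in skn-1 RNAi arrays, against 113 to 119.3 in N2.

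skn-1 RNAi lowered more genes by a large factor than it raised. Of 15783 probe sets tested, 3558 differed at an adjusted p under 0.05 in limma with Benjamini-Hochberg adjustment (22.5%), 1981 of them lower (12.6%) and 1577 higher (9.99%) with skn-1 RNAi. Such probe sets are named as called, lower or higher, from here on. Taking the brightest probe set of each of 12061 genes, 1578 genes were called lower (13.1%) and 1198 higher (9.93%), with a median log2 change of -0.02 over all genes. Of 2428 genes with several tested probe sets, 514 were called on the brightest. Another probe set was called in the same direction for 257 of these and in the opposite direction for 3. For 254 no other probe set was called. In 33.7% of genes the groups did not overlap, all skn-1 RNAi arrays lying below all control RNAi arrays in 18.5% and above them in 15.2%. At 2-fold or more, 404 probe sets were lower (2.56%) and 80 higher (0.507%). At the same threshold 323 genes were lower (2.68%) and 53 higher (0.439%), and at 4-fold or more 67 were lower and 11 higher. At 8-fold or more 31 genes were lower and 0 higher on their brightest probe set, against 34 probe sets lower and 2 higher, and 7 genes were at least 32-fold lower. Fold changes here and below are of log2(signal + 19), which understates the change of dim genes. The balance of small changes depended on the scaling: centring each array on its median shifted every log2 change by a median of 0.15 and made 72.6% of called probe sets higher, against 44.3% as scaled and 51.5% after quantile normalization. The count of probe sets called higher dropped to 884, 983 and 944 without skn-1 RNAi replicate 1, 2 and 3, and the total dropped to 2216 without replicate 1. Median centring called 3463 probe sets higher and 1308 lower. Counts of list members under other scalings or without an array, given below, are to be read beside these totals.

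Ribosomal RNA signal rose with skn-1 RNAi. All 5 tested probe sets named for rrn-3.1, a ribosomal RNA gene, were called higher without overlap, with log2 changes of 0.60, 1.17, 1.54, 2.96 and 3.83. The last of these read 450.4, 231, 314 and 260.3 on control RNAi, 5090.1, 4515 and 4131 on skn-1 RNAi and 234, 181 and 308 in N2 (adjusted p = 2.8e-10). It was 1 of the 2 probe sets at least 8-fold higher, and the other was not tied to a single gene here. The brightest rrn-3.1 probe set rose from 7572 ± 601 to 11516 ± 1679 (SD, n = 4 and 3), against 7248 ± 1167 in N2, and control RNAi and N2 overlapped on both. The probe set of rrn-3.56 rose as well (0.97, adjusted p = 0.00647). The part of ribosomal RNA in the other changes was not tested.

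**Figure D1:**
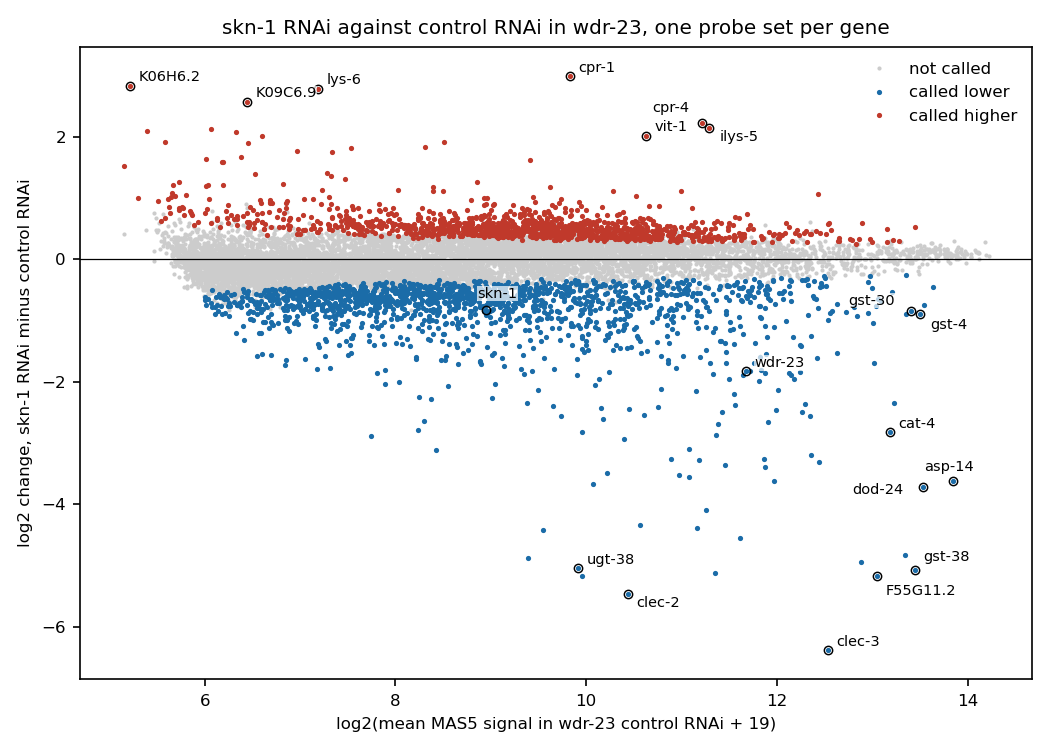
Log2 change, skn-1 RNAi minus control RNAi in wdr-23, for 12061 genes (y axis) against log2 of the mean control RNAi signal plus 19 (x axis), with genes called lower in blue, higher in red and not called in grey. The falls reach -6.39 for clec-3 while the rises end at 3.0 for cpr-1, and several of the deepest falls are among the brightest genes, such as gst-38 and F55G11.2.

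The targeted transcript fell on all 3 of its probe sets. On the brightest, skn-1 gave signals of 499, 469.6, 381 and 547 in the control RNAi arrays and of 289, 237 and 245 in the skn-1 RNAi arrays. The groups did not overlap, and skn-1 RNAi stood at 257 ± 28 (SD, n = 3) against 474 ± 70.1 (n = 4), or -0.83 on the log2 scale (SE 0.14, adjusted p = 0.000708). Its remaining probe sets gave -0.96 and -0.72. In N2 the brightest probe set stood at 534, 413 and 417, so skn-1 RNAi also lay below wild type, by -0.77 (adjusted p = 0.00577). The knockdown left 0.543 of the control signal on this probe set. RNAi acts on RNA, and SKN-1 protein was not measured.

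wdr-23 itself fell with skn-1 RNAi. Its probe set, which carries a suffix for probes that may match several transcripts, read 3304, 2784, 3858 and 3091 on control RNAi and 919, 904 and 882 on skn-1 RNAi. All 3 skn-1 RNAi arrays lay far below every control array, with a change of -1.82 (SE 0.13, adjusted p = 2.9e-08). N2 stood at 865 ± 151 (n = 3), within 1.05-fold of the skn-1 RNAi group. Where these probes lie against the mutated part of wdr-23 is not given in the sources used here, so the signal does not check the genotype. Among 20 tested genes that act on SKN-1, 4 were called lower (20%) and 0 higher (4 higher at an unadjusted p under 0.05). Over all genes the shares were 13.1% and 9.93%, and with so few members the counts are no result about this list. After median centring 7 were called higher. Without skn-1 RNAi replicate 3 and control RNAi replicates 1 and 3, 1, 1 and 2 were called higher. Besides skn-1 and wdr-23, mxl-3, a bHLH factor that responds to feeding, fell from 3473 ± 609 to 1327 ± 203 (log2 -1.37).

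All 13 genes commonly used to read SKN-1 activity were called lower, against 13.1% of all genes, with log2 changes between -5.07 and -0.54 and a median of -1.41. They did not fall to a common depth. The glutathione transferase gst-38 read 10992, 11288, 12135 and 10147 on control RNAi and 283, 315 and 345 on skn-1 RNAi. That was a 33.5-fold fall (log2 -5.07, SE 0.11, adjusted p = 7.09e-15), and it ended near the N2 signals of 211, 232 and 248.

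gcs-1, which encodes the catalytic subunit of the enzyme that starts glutathione synthesis, read 5652, 5200.3, 5193 and 5735 on control RNAi and 1654, 1903 and 1780.1 on skn-1 RNAi. It fell 3.04-fold without overlap (log2 -1.60, adjusted p = 1.71e-08), and stayed 1.88-fold above N2 at 944 ± 140.2. gst-4, the most used reporter gene of SKN-1, read 9975, 11672, 12312 and 12288 on control RNAi and 6319, 6487 and 5831 on skn-1 RNAi. Its fall was 1.85-fold (log2 -0.89, adjusted p = 8.88e-06), to a level still 4.99-fold above N2. gst-13 (9.16-fold), the short-chain dehydrogenase gene dhs-8 (7.02-fold), the nitrilase gene nit-1 (3.71-fold), ptps-1 (3.54-fold) and gst-10 (2.66-fold) fell more than gst-4. F56D5.3 (2.41-fold), sdz-8 (2.06-fold), gst-30 (1.79-fold), gst-12 (1.48-fold) and gst-7 (1.45-fold) fell less than gst-10. The list was written with earlier results of these arrays known, so its direction is not independent evidence.

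Of 42 glutathione transferase genes tested, 24 fell (57.1%, against 13.1% of all genes) and none rose (1 higher at an unadjusted p under 0.05). However, 1 was called higher after quantile normalization and 2 after median centring. The family's median log2 change was -0.66, and 12 members were at least 2-fold lower. These enzymes join glutathione to electrophiles, which marks them for export. After gst-38 and gst-13, gst-6 fell from 4898 ± 345 (n = 4) to 856 ± 36.5 (n = 3), a 5.61-fold change, against 437 ± 45.1 in N2. gst-40 read 9021, 10055, 9588 and 9631 on control RNAi and 1782, 1824 and 2005 on skn-1 RNAi. It fell 5.08-fold, yet remained 21.1-fold above its N2 signal of 70.7 ± 4.91. gst-30 stood at 10805 ± 467 on control RNAi, 6019 ± 115.9 on skn-1 RNAi and 56.4 ± 25.8 in N2, so its level after skn-1 RNAi was 83.2-fold that of N2. The omega-class gsto-2 (1458 ± 142, 602 ± 70.6 and 4 ± 2.08 in the same order) and gst-12 (3750.4 ± 422, 2513 ± 93.7 and 50.6 ± 9.57) also fell. gst-12 was still 36.6-fold above N2, and the N2 signal of gsto-2 lay so far under the filter on low values that no fold against it is given. gst-13 lay on the other side, 1.46-fold below N2 after skn-1 RNAi (adjusted p = 0.0127). The fall with skn-1 RNAi and the distance left to N2 thus varied from gene to gene. gst-4 and gst-30 fell by similar amounts, -0.89 and -0.84, and ended 2.32 and 6.38 log2 units above N2.

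**Figure D2:**
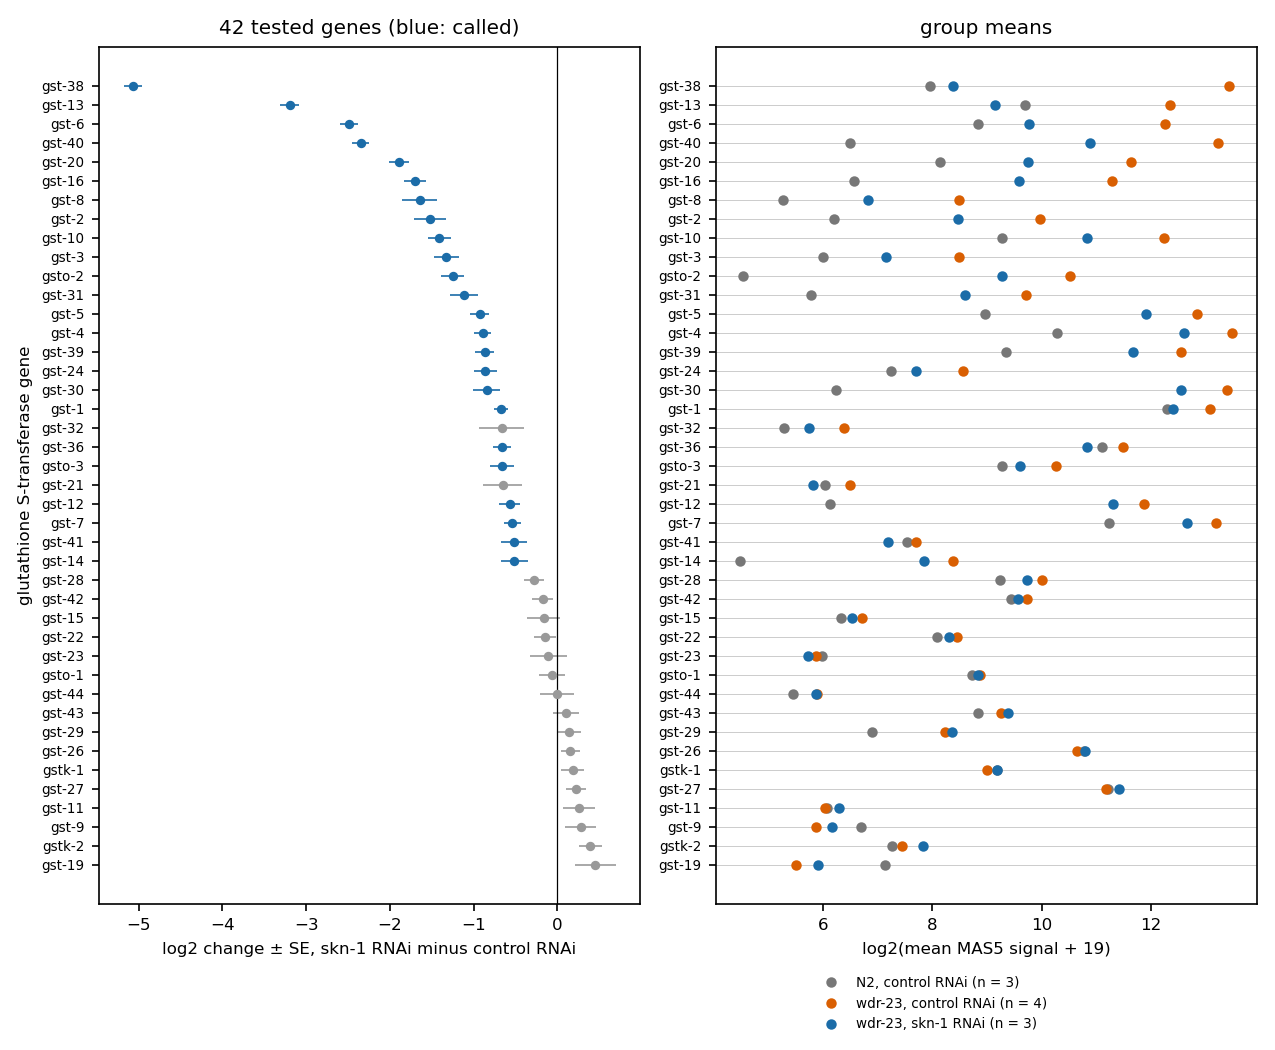
The 42 glutathione transferase genes tested. The left panel shows the log2 change with its standard error, called genes in blue and others in grey, and the right panel shows log2 of each group's mean MAS5 signal plus 19. The mean of gst-13 on skn-1 RNAi lies below its N2 mean, while those of gst-30, gst-12 and gst-40 stay far above theirs.

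Of 23 glutathione, thioredoxin and NADPH supply genes tested, 9 fell (39.1%, against 13.1% of all genes) and none rose (2 higher at an unadjusted p under 0.05). In this list 1 was called higher after quantile normalization, 2 after median centring and 1 without control RNAi replicate 3. gss-1, glutathione synthetase, fell from 3117 ± 155 to 1462 ± 77.5 (log2 -1.08, adjusted p = 5.47e-07). gsr-1, glutathione reductase, fell from 10458 ± 1040.1 to 5590.2 ± 193 (log2 -0.90, adjusted p = 5.27e-06). gspd-1, glucose-6-phosphate dehydrogenase, which makes NADPH, fell from 3592 ± 497 to 2088 ± 134 (log2 -0.77). All 3 ended within 1.34-fold of N2. Among peroxide-removing enzymes, the glutathione peroxidase genes gpx-1 (log2 -1.60) and gpx-2 (-1.33) and the peroxiredoxin prdx-2 (-0.46) fell. The mitochondrial superoxide dismutase sod-3 rose, from 159 ± 29.6 to 259 ± 19.7 (log2 0.66, adjusted p = 0.00483).

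UDP-glucuronosyltransferases, which attach sugars to lipophilic compounds, changed in both directions. Of 53 tested, 24 fell (45.3%) and 7 rose (13.2%), against 13.1% and 9.93% of all genes. After median centring 11 rose, and the median as scaled was -0.45. ugt-38 read 1036, 925, 1029.8 and 799.5 on control RNAi and 11.37, 6.09 and 13.8 on skn-1 RNAi, a 32.9-fold fall of signal + 19 without overlap (adjusted p = 3.15e-12) to the range of N2, 5.93 to 20.6. ugt-13 fell 9.74-fold, from 2298 ± 233 to 218 ± 4.11, and ended below its N2 level of 360.5 ± 66.1 (adjusted p = 0.00808). ugt-48 fell 5.81-fold. In the opposite direction ugt-53 read 65.5, 60.2, 62 and 69.5 on control RNAi and 284, 216 and 245 on skn-1 RNAi. It rose 3.2-fold and stood 2.28-fold above N2 as well (adjusted p = 0.000123). ugt-62 rose 1.81-fold.

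Other detoxification families held fewer called members, against 13.1% lower and 9.93% higher over all genes. Of 42 cytochrome P450 genes, which oxidise foreign compounds, 9 fell (21.4%) and 4 rose (9.52%, near the share of all genes). Falls and rises numbered 5 and 5 after quantile normalization and 5 and 8 after median centring. Without skn-1 RNAi replicate 3, 5 were called lower. cyp-13B1 fell from 250.3 ± 33 to 85.5 ± 24.4 and cyp-25A1 rose from 77.1 ± 11.103 to 162 ± 20.3. Of 28 short-chain dehydrogenases 7 fell (25%) and 4 rose (14.3%), with dhs-9 falling from 2817 ± 57.7 to 975 ± 26.9. Of 12 aldehyde dehydrogenases 2 fell (16.7%, near the share of all genes) and none rose. In this family 1 was higher at an unadjusted p under 0.05, and 1 was called higher after median centring. The larger fall was that of alh-5, from 1075 ± 79.8 to 246 ± 37.9 (log2 -2.05). Of 50 ABC transporters 10 fell (20%) and 2 rose (4%), but 8 fell and 9 rose after median centring, and 4 rose without control RNAi replicate 1. The flavin monooxygenase fmo-2, which is induced by hypoxia and fasting, rose from 34.1 ± 20.9 to 101 ± 19.1 (log2 1.26, adjusted p = 0.00269).

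Sulfur, iron and nutrient-uptake genes gave further falls. cysl-2, a cysteine synthase relative that responds to low oxygen and hydrogen sulfide, fell from 1835 ± 187 to 575 ± 79.6 (log2 -1.65) and lay below N2 at 928 ± 44.3. rhy-1, a membrane regulator of the hypoxia pathway, fell from 1194 ± 70.9 to 512 ± 98.5 (log2 -1.21). The ferritin gene ftn-1, which stores iron, read 430.4, 423, 544 and 422 on control RNAi and 119.3, 128 and 147 on skn-1 RNAi. It fell 3.14-fold, and because N2 stood at 345, 389 and 407 its level after skn-1 RNAi was 2.66-fold below wild type (adjusted p = 6.55e-06). pept-1, the intestinal peptide transporter, fell 2.16-fold, the aquaporin gene aqp-11 3.64-fold and the sugar transporter gene swt-2 4.78-fold. Of 26 sulfur genes 7 fell (26.9%) and 4 rose (15.4%), against 13.1% and 9.93% of all genes. Of 78 solute carriers 23 fell (29.5%) and 2 rose (2.56%), with 4 carriers rising after median centring. The count of carriers that rose was 0 without skn-1 RNAi replicate 1 or 2 or control RNAi replicate 2 or 4, and 1 without any other array of both groups.

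A further group of bright genes belongs to biogenic amine synthesis. cat-4, GTP cyclohydrolase, starts the synthesis of tetrahydrobiopterin, the cofactor for making serotonin and dopamine. It read 8370.3, 9322, 9194 and 10184 on control RNAi and 1054, 1380.4 and 1488 on skn-1 RNAi. The groups lay far apart, with a 7.06-fold fall (log2 -2.82, SE 0.15, adjusted p = 5.77e-10) to the level of N2, 1538 ± 412. ptps-1, the next enzyme of that pathway, read 696, 760.0, 652 and 579 on control RNAi against 174, 148 and 209, and N2 stood at 179 ± 11.7. bas-1, the decarboxylase that forms serotonin and dopamine, fell from 1508 ± 72.5 to 509.9 ± 38.8 (log2 -1.53), against 586 ± 63.2 in N2. These were followed to the other pterin genes after their values were seen. pcbd-1, which recycles the cofactor, rose from 480.0 ± 39.6 to 987 ± 179 (log2 1.00, adjusted p = 7.17e-05). qdpr-1, the reductase of the same recycling step, gave -0.26 (adjusted p = 0.0624), and agmo-1, a lipid monooxygenase that uses the cofactor, gave -0.45 (adjusted p = 0.0799).

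The deepest falls were in genes for secreted and immune-type proteins. clec-3, a C-type lectin gene, read 5559, 5625, 6551 and 5984 on control RNAi and 47.5, 48 and 61.3 on skn-1 RNAi. This was an 83.6-fold fall of signal + 19 (log2 -6.39, SE 0.16, adjusted p = 2.25e-14), and N2 read 20.5, 7.21 and 21.6. Among the genes named here it was the largest on that scale, while in plain ratios of mean signals clec-163, at 171, stood before clec-3, at 113. clec-2 read 1376, 1404, 1255 and 1426 on control RNAi and 20.9, 6.3 and 11.24 on skn-1 RNAi, with N2 at 12.7, 12.3 and 16. Both genes thus went from bright to dim in every array of the respective group, and for clec-2 the signals after knockdown spanned those of N2. clec-163 fell from 651 ± 19 to 3.8 ± 1.1, clec-74 from 2266 ± 369.8 to 90 ± 20.1 and clec-17 from 1490.1 ± 121.6 to 56.3 ± 9.76. The last of these was measured by probes that may match related transcripts.

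**Figure D3:**
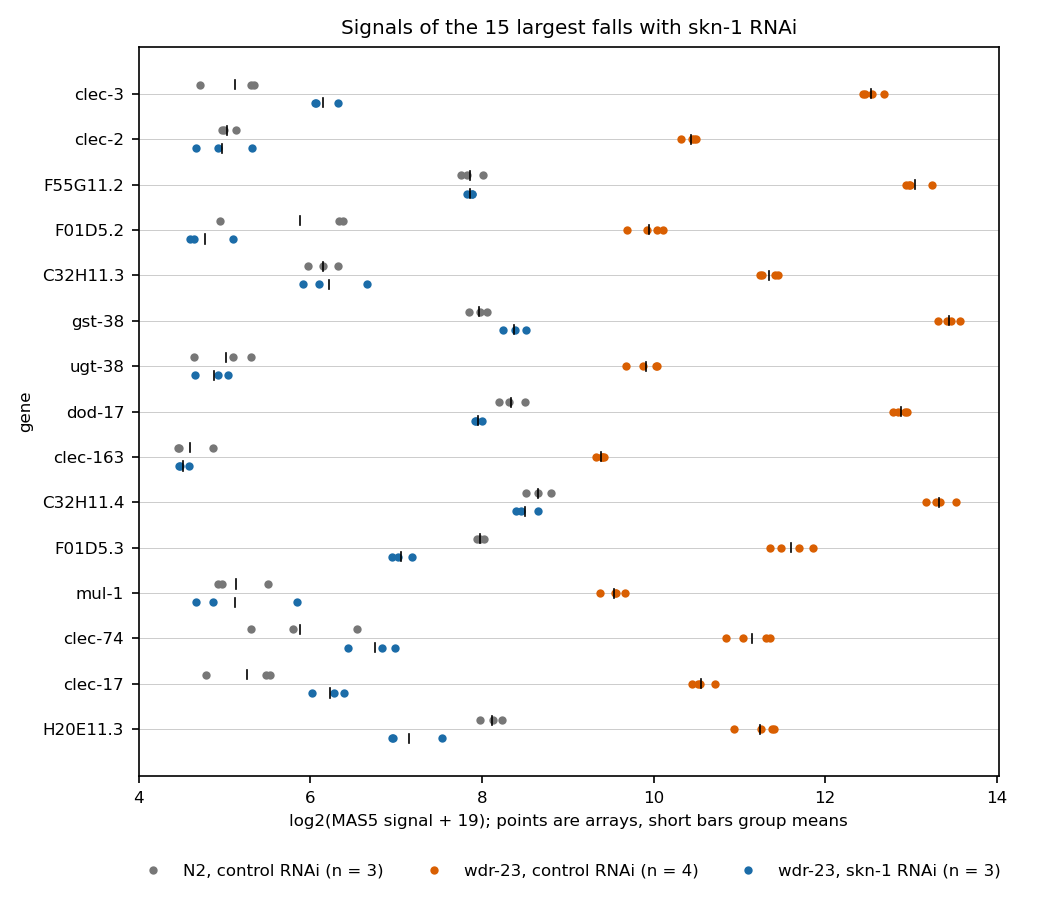
Log2(MAS5 signal + 19) of the 15 genes with the largest falls, with a point per array and a short bar at each group mean, for wdr-23 on control RNAi, wdr-23 on skn-1 RNAi and N2. For every gene the 3 skn-1 RNAi arrays lie below the 4 control RNAi arrays, and for most they lie among or near the N2 arrays.

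CUB-like domain genes, which the worm intestine induces on infection and stress, fell as steeply. F55G11.2 read 7867, 8148, 9691 and 8082 on control RNAi and 218, 216 and 208 on skn-1 RNAi, against 208, 239 and 197 in N2. The skn-1 RNAi arrays lay far below every control array and within the range of the N2 arrays, at a log2 difference from N2 of 0.00. dod-17, first described as a target of DAF-16, fell from 7544 ± 394 to 228 ± 7.6 and C32H11.4 from 10336 ± 1072 to 345 ± 34.8. C32H11.3 fell from 2585 ± 187 to 57.5 ± 21.5. dod-24 read 10869, 11869, 12654 and 11958 on control RNAi and 734, 918 and 1001 on skn-1 RNAi, a 13.2-fold fall that left it 1.85-fold above N2. The mucin-like gene mul-1 fell from 726 ± 62.1 to 18.3 ± 17.5. Over the list of 28 intestinal immune and stress effectors tested, 16 fell (57.1%) and 6 rose (21.4%), against 13.1% and 9.93% of all genes. C17H12.8 (log2 0.87) and dod-22 (0.93) rose, so these effectors did not move as a block.

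Protease and lysozyme genes divided in the same way. asp-14, an aspartyl protease gene, had the largest loss of signal of the genes named here, from 13112, 14406, 15946 and 15384 on control RNAi to 1134, 1266 and 1121 on skn-1 RNAi. Its fall was 12.3-fold (adjusted p = 9.15e-14), against 1474 ± 55.3 in N2. In contrast cpr-1, a cathepsin B-like protease gene of the intestine, read 894, 674, 1112 and 894 on control RNAi and 7957, 7306 and 6345 on skn-1 RNAi. It had the largest rise among genes read on their brightest probe set, 8-fold (log2 3.0, SE 0.14, adjusted p = 6.19e-11), below the 3.83 of 1 rrn-3.1 probe set, and N2 stood at 8601 ± 417. cpr-4, a related protease gene, read 2397, 2444, 2048 and 2526 on control RNAi and 12176, 11001 and 10242 on skn-1 RNAi. It rose 4.71-fold and passed the N2 level of 6608 ± 340.5 (1.68-fold, adjusted p = 0.000308). Of 22 cathepsin and aspartyl protease genes, 8 rose (36.4%) and 3 fell (13.6%), against 9.93% and 13.1% of all genes, and 5 fell after quantile normalization. Among the risers were asp-17, from 47.9 ± 30.4 to 251 ± 47.8, and cpr-9, from 5940.4 ± 137 to 8966 ± 878.

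Of 26 lysozyme and caenopore genes, which act on bacterial walls and membranes, 9 rose (34.6%) and 7 fell (26.9%). lys-6 read 120.3, 151, 115 and 121.6 on control RNAi and 939, 1071 and 955 on skn-1 RNAi, a 6.92-fold rise. ilys-5 rose from 2475 ± 216 to 10982 ± 1230.1 with N2 at 10963 ± 236, lys-4 from 5507 ± 734 to 11482 ± 1112 and spp-4 from 297 ± 37.2 to 1104 ± 53.5. The probes for lys-6, lys-4 and ilys-5 may match related transcripts. spp-12 fell, from 2987 ± 184 to 645 ± 163. C-type lectins as a family gave 25 falls (26.3%) and 11 rises (11.6%) among 95 tested. The share of rises lay near the 9.93% of all genes, while 13.1% of all genes fell. In this family clec-10 had the largest rise, from 106 ± 18.5 to 407 ± 61.2.

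**Figure D4:**
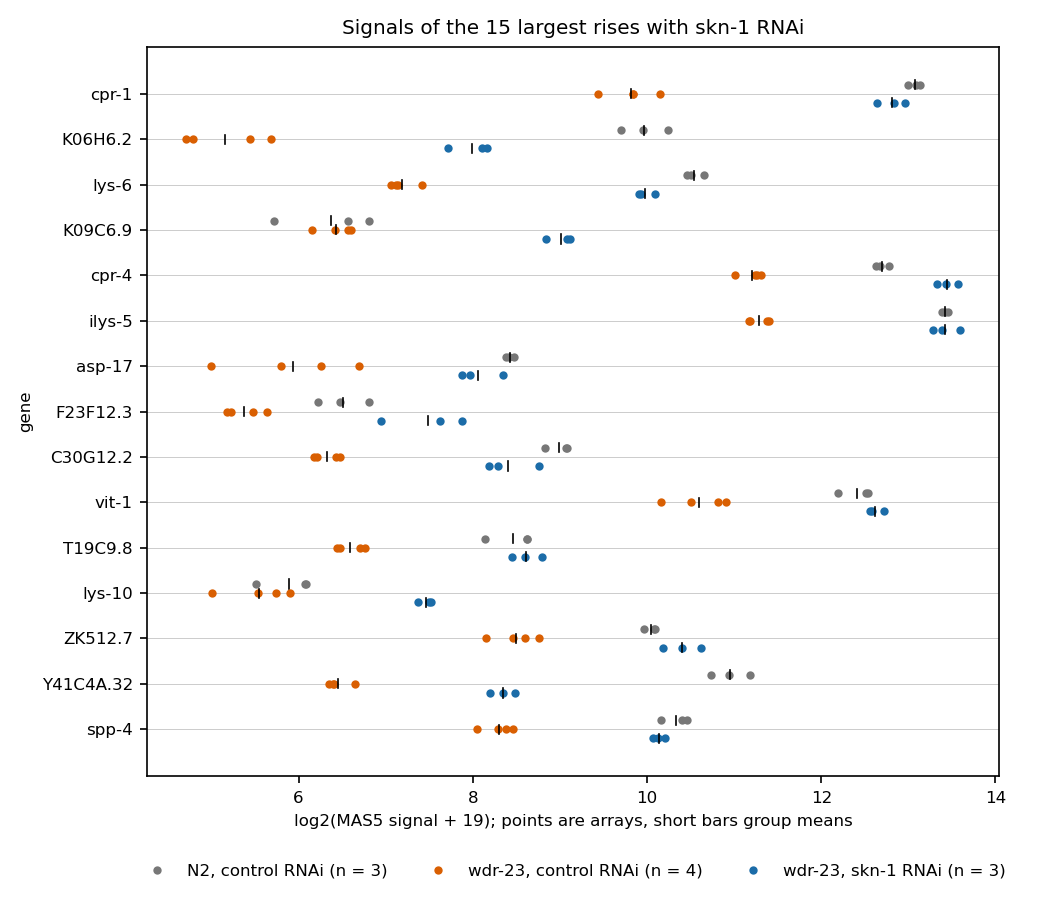
Log2(MAS5 signal + 19) of the 15 genes with the largest rises, with a point per array and a short bar at each group mean, for wdr-23 on control RNAi, wdr-23 on skn-1 RNAi and N2. All skn-1 RNAi arrays lie above all control RNAi arrays. K09C6.9 and lys-10 lie above N2, and Y41C4A.32 and K06H6.2 lie below it.

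Most of the yolk genes tested rose. Of 5 vitellogenin genes 4 were called higher (80%), against 9.93% of all genes, and the list's median was 0.50. With so few members, some on probes that may match several vitellogenins, the count is no result about the family. vit-6 was not called on its brightest probe set (0.09, adjusted p = 0.542) or on its other one (0.29, adjusted p = 0.0529). vit-1 read 1900.1, 1438, 1783 and 1129.5 on control RNAi and 6745, 6117 and 6004 on skn-1 RNAi, a 4.06-fold rise (adjusted p = 4.11e-08). The skn-1 RNAi arrays lay just above the N2 range of 4659 to 5911, at a log2 difference from N2 of 0.21 (adjusted p = 0.551). vit-5 rose from 11171 ± 317 to 16152 ± 2351 and vit-4 from 9058 ± 332 to 12949 ± 2136, on probes that may match several vitellogenins. Their changes on these bright probe sets were 0.52 and 0.50. The probe sets of vit-4 differed: a bright one gave 0.57, and a dim one rose from 73.3 ± 41.4 to 458 ± 46.9 (log2 2.47, adjusted p = 1.81e-06), against 88.9 ± 2.25 in N2. Yolk is normally made in the intestine from the end of larval life, and the labels give no finer stage than mostly L4.

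Several changes did not end at the N2 level. K09C6.9, a gene with no role given here, read 66.2, 78, 52.2 and 75.6 on control RNAi, 537, 438 and 521 on skn-1 RNAi and 93.1, 33.8 and 76 in N2. skn-1 RNAi raised it 5.97-fold, and 6.25-fold above N2 (adjusted p = 9.59e-07), while control RNAi and N2 overlapped. The lysozyme gene lys-10 gave the same order, 28.9 ± 11.81 on control RNAi, 157 ± 10.02 on skn-1 RNAi and 41.3 ± 12.7 in N2. Other genes were lowered past N2: F01D5.3 fell from 3109 ± 479 to 114 ± 10.8 against 233 ± 7.15 in N2, and dgat-2, which makes storage fat, fell from 1698 ± 259 to 651 ± 90.6 against 1167 ± 90.5. fat-5, a desaturase that acts on palmitate, moved away from N2, from 597 ± 19.4 on control RNAi to 381 ± 11.15 on skn-1 RNAi against 1582 ± 47.3 in N2. K06H6.2 and Y41C4A.32 rose, from 18.2 ± 12.3 to 239 ± 41.8 and from 68.6 ± 8.38 to 307 ± 32.3, but stayed 3.92-fold and 6.1-fold below N2.

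In fatty acid oxidation and central carbon metabolism the shares of called genes lay near or below those of all genes, so the counts are no result about these lists. Of 68 fatty acid activation and oxidation genes 9 fell (13.2%) and 7 rose (10.3%), with 5 and 13 after median centring and 4 rising without skn-1 RNAi replicate 1 or 2 or control RNAi replicate 4. Of 41 genes of central carbon metabolism 3 fell (7.32%) and 2 rose (4.88%), 1 rose without skn-1 RNAi replicate 1 or 3 or control RNAi replicate 1, and 6 rose after median centring. pck-1, which starts gluconeogenesis, rose from 1001 ± 148 to 1768 ± 245 (log2 0.81). The lipase genes fil-1 and lipl-5 moved apart, fil-1 from 218 ± 28 to 48.3 ± 2.06 (log2 -1.81) and lipl-5 from 1260.0 ± 44.1 to 2107 ± 126 (log2 0.73). sams-1, which makes S-adenosylmethionine, fell from 7897 ± 395 to 4306 ± 208. The intestinal proton pump subunit vha-6 fell from 2442 ± 268 to 1409.6 ± 105.

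Proteasome and ribosomal protein genes were rarely called, against 13.1% lower and 9.93% higher over all genes. Of 33 proteasome subunits 1 was called lower and 1 higher, and the median log2 change was -0.01. The count of lower subunits was 0 without skn-1 RNAi replicate 2 and 2 without control RNAi replicate 3, that of higher ones 0 without skn-1 RNAi replicates 1 and 3 or control RNAi replicate 3, and 5 were called higher after median centring. Of 78 ribosomal protein genes none was called in limma, 1 was lower and 4 higher at an unadjusted p under 0.05, but 2 were lower and 1 higher after quantile normalization, 18 higher after median centring, 1 lower without control RNAi replicate 1 and 2 higher without skn-1 RNAi replicate 3. Of 16 heat shock genes 4 rose, against 9.93% of all genes, and 1 fell. The faller was hsp-43 (-0.36, adjusted p = 0.0247), which was not called after median centring or without any 1 of skn-1 RNAi replicates 1 to 3 and control RNAi replicates 1 and 3. The risers were hsp-12.3 (0.59, adjusted p = 0.00274), the heat shock factor gene hsf-1 (0.55, adjusted p = 0.014) and the small heat shock protein genes hsp-16.41 and hsp-16.2. These last 2 went from 224 ± 30.5 to 398 ± 118 (log2 0.75, adjusted p = 0.00472) and from 315 ± 44.1 to 480.3 ± 81.9 (log2 0.58, adjusted p = 0.00851). The call of hsp-16.2 was lost without skn-1 RNAi replicate 3, and both hsp-16 genes stayed 2.63-fold and 2.69-fold below N2. atf-4, a factor of the integrated stress response, fell from 3790.5 ± 521 to 1561 ± 98.2 (log2 -1.26).

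Genes of the cuticle and the larval moult fell in part, against 13.1% lower and 9.93% higher over all genes. Of 78 moulting and apical matrix genes 27 fell (34.6%) and 1 rose, 2 after either other scaling and none without skn-1 RNAi replicate 2, and of 56 hedgehog-related and patched-related genes 24 fell (42.9%) and 3 rose, 4 after median centring. wrt-2, a hedgehog-related gene of the epidermis, read 1029, 1031, 776 and 1234 on control RNAi and 334, 366 and 347 on skn-1 RNAi. It fell 2.78-fold and lay 1.49-fold above N2 at 228 ± 28.9. grl-14 (log2 -2.0), the patched-related ptr-22 (-1.65) and the moulting protease inhibitor gene mlt-11 (-1.1) fell too. Of the cuticle collagens tested 26 fell (21.3%) and 5 rose, 13 of them higher after median centring, which turned the median from -0.10 to 0.05, and 3, 3 and 2 rose without skn-1 RNAi replicate 1, 2 and 3. The furrow collagens dpy-2 (-1.15) and dpy-7 (-1.08), dpy-17 (-1.38) and col-76 (-1.69) fell. Of 159 nuclear hormone receptors 32 fell (20.1%) and none rose (3 higher at an unadjusted p under 0.05), with 19 called lower under either other scaling, 2 and 3 called higher after quantile normalization and median centring, 1 called higher without skn-1 RNAi replicate 1, and 17 and 20 lower without skn-1 RNAi replicates 1 and 3. nhr-11 fell most, from 936 ± 75.0 to 291 ± 8.47.

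Markers of several tissues also moved. In RNA of whole animals, fewer cells of a type and less RNA per cell cannot be told apart. Of 52 neuropeptide genes 31 fell (59.6%) and 1 rose, with a median of -0.45. Only 17 fell after median centring and 16 and 15 without skn-1 RNAi replicate 1 and 2, and none rose without replicate 3. No neuropeptide gene was 2-fold lower. The size of the falls is shown by flp-1 (1326 ± 139 to 788 ± 69.0) and nlp-14 (159 ± 13.6 to 86.9 ± 1.97). The peptide-processing enzyme gene egl-21 fell from 1946 ± 318 to 1091 ± 43.3. For flp-1 this holds on its brightest probe set only. Its other probe sets gave -0.23 and -0.12 and were not called (adjusted p = 0.26 and 0.547). Summed neuropeptide signals were 26963 to 29789 on control RNAi, 20273 to 23988 on skn-1 RNAi and 18472 to 21610 in N2. Of 36 neuron markers 10 fell (27.8%) and none rose at an adjusted or unadjusted p under 0.05, with 6 falling without skn-1 RNAi replicate 1. Of 23 pharynx markers 11 fell (47.8%) and 1 rose (4.35%). None of these rose without skn-1 RNAi replicate 1 or 2 or control RNAi replicate 2. Of 30 intestine markers 9 fell (30%) and 6 rose (20%), with 5 falling without skn-1 RNAi replicate 1 or 3. After median centring 6 intestine markers fell and 6 rose. Over all genes 13.1% fell and 9.93% rose.

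A share of the germ-line genes rose. Of 57 germ-line and oocyte genes 23 were called higher (40.4%, against 9.93% of all genes) and none lower (0 at an unadjusted p under 0.05). Their median was 0.33, with 1 lower after quantile normalization and 46 higher after median centring. Without skn-1 RNAi replicate 1 or 2 the count called higher was 14. Over all probe sets the counts called higher moved too, from 1577 to 3463 after median centring and to 884 and 983 without skn-1 RNAi replicate 1 and 2. cbd-1, an eggshell protein gene, rose from 3269 ± 196 to 5481 ± 192 (log2 0.74, adjusted p = 3.9e-05) and deps-1, a P granule gene, from 965 ± 162 to 1781 ± 230.0 (log2 0.88). Of 58 DNA replication and cell cycle genes 22 rose (37.9%) and 1 fell, with 43 rising after median centring and 9, 10 and 13 without skn-1 RNAi replicate 1, 2 and 3. orc-1, which marks replication origins, rose from 634 ± 114 to 1058 ± 133 and the phosphatase gene cdc-25.3 from 468 ± 63.8 to 971 ± 241. The 1 gene that fell was his-24, a linker histone gene, from 1956 ± 319 to 842 ± 128 (log2 -1.2). Summed germ-line and oocyte signals were 133339 to 146277 on control RNAi, 162447 to 177759 on skn-1 RNAi and 160851 to 177295 in N2. Of 72 sperm genes only 2 fell (2.78%) and 3 rose (4.17%), below the 13.1% and 9.93% of all genes. After median centring 1 sperm gene fell and 14 rose. Without skn-1 RNAi replicate 1, 2 or 3 or control RNAi replicate 4, 1 sperm gene fell, and 0, 1, 1 and 5 rose without skn-1 RNAi replicates 1 and 2 and control RNAi replicates 4 and 2. The part of germ-line RNA content in the other changes was not tested.

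**Figure D5:**
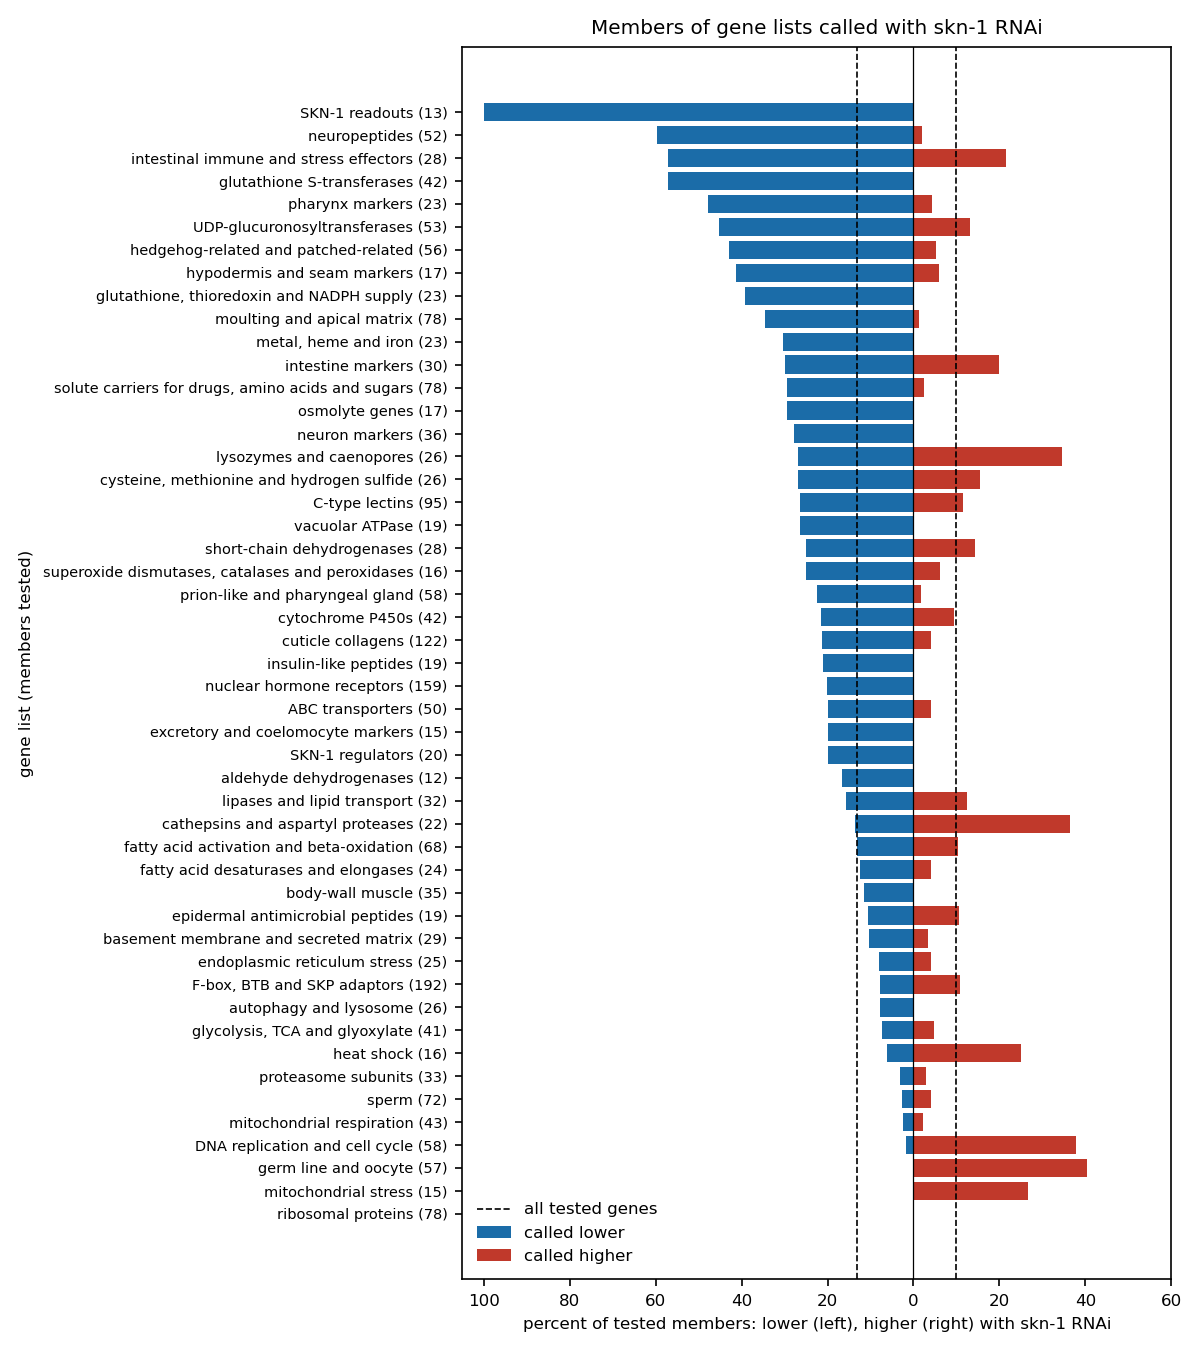
Percent of tested members called lower (to the left, blue) and higher (to the right, red) with skn-1 RNAi for gene lists with at least 10 tested members, with dashed lines at the shares over all genes, 13.1% and 9.93%. SKN-1 readouts, neuropeptides, intestinal effectors and glutathione transferases reach furthest to the lower side, and germ-line genes furthest to the higher side.

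Falling genes often lay beside each other on the chromosome. Of the 323 genes at least 2-fold lower, 316 could be placed in the RefSeq gene order, and 61 of these (19.3%) had an adjacent gene that was also at least 2-fold lower. Over 11781 tested genes in that order, 3.33% had such a neighbour. Rising genes were fewer: of 50 placed genes at least 2-fold higher, 2 (4%) had an adjacent gene also at least 2-fold higher. That compared with 0.4% of all tested genes, so adjacency was not particular to the falls. The longest run held 6 tested genes, F01D5.1, F01D5.2, F01D5.3, F01D5.5, F01D5.6 and F01D5.7, for which no role is given here. F01D5.2 read 951, 1085, 809.9 and 1038 on control RNAi and 15.1, 5.16 and 5.93 on skn-1 RNAi. F01D5.1 and F01D5.5 fell 9.57-fold and 6.31-fold, and F01D5.6 and F01D5.7 fell 2.32-fold and 2.05-fold, so the depth differed within the run.

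Other runs joined genes of related kinds. F55G11.2, mbug-1 and dod-17 stood together, and mbug-1 fell from 4047 ± 428 to 718 ± 35.5. So did dct-17, F35E12.6 and irg-5, with log2 changes of -1.86, -1.86 and -1.15. The glucuronosyltransferase genes ugt-8, ugt-14 and ugt-13 (-1.17, -2.28 and -3.28) and ugt-11, ugt-9 and ugt-10 (-1.42, -1.13 and -2.25) formed runs, and so did C17H12.6, H20E11.3 and H20E11.2 (-3.67, -4.10 and -2.35). C55A6.6, sdz-8, C55A6.4 and C55A6.7 stood in a row at -1.45, -1.04, -1.69 and -1.73. lpr-3, lpr-6, lpr-5 and lpr-4, lipocalin-related genes of the apical matrix, fell within a narrow range, from -1.29 to -1.16. Neighbouring copies of a family can share probe sequence, so such genes were not measured fully apart.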

How the data were processed

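Whole-animal RNA of 3 groups was measured on 1-colour arrays, 4 of wdr-23 on control RNAi, 3 of wdr-23 on skn-1 RNAi and 3 of N2 on control RNAi. The deposited values are MAS5 signals, array intensities on a linear scale, made by the authors with MAS5 per the submitters' processing notes. Their trimmed mean was the same in every array, and their background correction and probe annotation build are not given in the sources used here. The labels call the samples of a group biological replicates.

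From these values, log2(signal + 19) was computed, 19 being the rounded 20th percentile of all signals. The 77 control probe sets were left out, then the 30% of probe sets with the lowest mean (6765, at or under 5.71). limma 3.58.1 in R 4.3.3 fitted all 10 arrays in 3 groups with lmFit and eBayes with an intensity trend, which left 16.4 degrees of freedom, and p-values were adjusted by Benjamini-Hochberg over 15783 probe sets. The fit was also run on simulated data with independent noise and far fewer changed probe sets than were called here, which cannot address the scaling. A gene stands for its brightest probe set that names 1 gene, and gene names come from the array annotation and RefSeq.

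Genes were named by rule among called genes whose groups did not overlap. These are the 15 largest falls and 15 largest rises by log2 change, the 10 largest of each by signal difference, skn-1, wdr-23, the SKN-1 readouts and up to 3 falls and 3 rises per list. Up to 5 called members that differed from their list may be named too. Genes of the pterin pathway, of runs of neighbours, and gspd-1, gsto-2, gst-5, gst-16, gst-20, elt-3, hsf-1 and rrn-3.56 were added after their values were seen. Members and lists were chosen with earlier results of these data known. Alternatives were other pseudocounts, filters and scalings, the wdr-23 arrays alone, replicate numbers as a block, no intensity trend, no suffixed probe sets, and each array left out in turn. Replicate numbers were not taken as pairs in the main fit. RefSeq start positions were used only to order protein-coding genes along each chromosome, and promoter sequence was not used here.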

Additional observations from a re-analysis of the deposited data

Results flagged for a closer look

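Of 257 named genes, 11 had a control RNAi array that stood apart from the other 3 of its group, by a gap larger than Dixon's 95% critical share of the group's range. Chance alone flags about 1 in 20 groups of 4. Replicate 3 was high for F55G11.2 (9691 against 7867 to 8148, gap share 0.832) and ftn-1 (544 against 422 to 430.4, gap share 0.920), and low for gsto-2 (1245 against 1524 to 1536, gap share 0.961). Replicate 2 was high for gst-20 (3447 against 3056 to 3112, gap share 0.850). It was low for ncr-1 (345 against 447 to 449.5, gap share 0.974), nhx-9 (238 against 318 to 332, gap share 0.872) and spon-1 (396 against 459 to 473, gap share 0.832). Replicate 1 was low for ins-35 (297 against 367 to 384, gap share 0.830) and nhr-43 (149 against 236 to 242, gap share 0.946). Replicate 4 was low for lmp-1 (3867 against 4708 to 4759, gap share 0.948) and high for slc-36.3 (396 against 234 to 244, gap share 0.922). No array was set apart in most of these genes, and all 11 genes were called lower with skn-1 RNAi, with no control array reaching the skn-1 RNAi arrays.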

How the results depend on the processing

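No named gene reversed its direction under any alternative tried, though the medians of some lists changed sign with median centring, and the fall of skn-1 stayed past the threshold in all of them that held its probe set. Of 255 named genes that were called, 212 stayed called under every alternative. Median centring gave 1308 probe sets lower and 3463 higher, with 133 higher by 2-fold or more. Leaving out probe sets with a suffix tested fewer of them and gave 2101 called, 1266 lower and 835 higher, with 267 lower and 53 higher by 2-fold or more. Leaving out each array in turn gave 2216 to 3533 called probe sets, 1332 to 1984 lower and 884 to 1573 higher, with 384 to 431 lower and 80 to 92 higher by 2-fold or more. The lowest total and the lowest counts of lower and of higher probe sets came without wdr-23 skn-1 RNAi replicate 1, and the lowest count at least 2-fold lower without wdr-23 control RNAi replicate 4. The cause of the other shifts was not tested. Deviations of arrays with the same replicate number correlated at 0.176, -0.101 and -0.082 between both wdr-23 groups, so the numbers were not taken as pairs, and a fit with the replicate block called 2918 probe sets, 1656 lower and 1262 higher. Such deviations correlated at 0.114, -0.025 and 0.151 between N2 and skn-1 RNAi. Between N2 and control RNAi the values were 0.043, 0.048 and -0.157. Dim genes limit the precision: a fall to signals near the added 19 has a fold that depends on it.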

Other observations

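Smaller gene groups added further changes. Of 17 osmolyte genes 5 fell (29.4%, against 13.1% of all genes) and none rose (0 at an unadjusted p under 0.05). Only 3 fell without skn-1 RNAi replicate 2 or 3 or control RNAi replicate 1, and 3 fell and 1 rose after median centring. With so few members the counts are no result about this list. hmit-1.1, an inositol transporter gene induced by high salt, fell from 151 ± 28.4 (SD, n = 4) to 45.1 ± 10.9 (n = 3), against 24.3 ± 14.4 in N2. osm-8, a mucin-like gene of the epidermis, fell from 308 ± 80.1 to 146 ± 34.7. The insulin-like peptide gene ins-35 fell 4.2-fold, from 356 ± 40.3 to 72 ± 24.5, and the cadmium-responsive gene cdr-1 fell 2.45-fold.

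In the other direction, 4 of 15 genes of mitochondrial stress rose (26.7%, against 9.93% of all genes) and none fell (0 at an unadjusted p under 0.05). The count that rose was 2 without skn-1 RNAi replicate 1 and 6 after median centring. With so few members it is no result about this list. hsp-6, the mitochondrial chaperone, rose from 2234 ± 184 to 3418 ± 359 and ubl-5 from 919.9 ± 35.5 to 1384 ± 116.0. nlp-25, an epidermal antimicrobial peptide gene, read 260.2, 351, 373 and 287 on control RNAi, 639, 839.5 and 650.0 on skn-1 RNAi and 305, 370.2 and 304 in N2. The skn-1 RNAi arrays were above both other groups, which overlapped. ech-7, a fatty acid oxidation gene, rose 2.18-fold, and the ubiquitin ligase adaptor gene skr-4 rose from 242 ± 30.4 to 559 ± 144.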
